A study of Mus musculus with 16 samples.

Results

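The longest exposure of the series compared cells kept for 16 h in medium without amino acids with cells kept for 16 h in medium with amino acids. The cells were N25/2, an immortalized line derived from embryonic mouse hypothalamus and grown before treatment in Dulbecco's modified Eagle's medium with fetal bovine serum. It is a single cell line, and whether the treatment media also held serum was not given in the sources used here. At 16 h there was 1 array for the deprived cells and 1 for the control cells, that is 2 of the 16 arrays of the series. The other arrays were 1 deprived and 1 control at each of 1, 2 and 3 h, and 4 deprived and 4 control at 5 h. The labels number the 5 h samples without saying whether they were separate cultures, so the p-values at 5 h rest on sample-to-sample spread that could be purely technical. Of 19938 genes with a name, the 9969 whose mean level over all 16 arrays lay above the median of 7.47 on the log2 scale were described. The gene just above that level was Tmem14a, and Siglecg lay just below it.

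Cells short of amino acids accumulate uncharged tRNA, which activates the kinase GCN2. GCN2 phosphorylates the initiation factor eIF2, which slows protein synthesis in general while allowing the transcription factor ATF4 to be translated. ATF4, with partners of the C/EBP family, acts on promoters of genes for amino acid transporters, tRNA synthetases, amino acid synthesis and stress regulators. A second sensor, the mTORC1 complex at the lysosome, controls ribosome production, autophagy and lipid synthesis according to the amino acid supply.

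With 1 array per group, no test was run between the 16 h groups, since it would have to assume that these arrays vary like those of 5 h, and the values below describe those arrays. The spread between 5 h arrays of the same group served as the yardstick. For each gene it was the largest difference between any 2 of the 4 arrays of a group, taken over both groups and 12 pairs. A gene was counted as higher or lower at 16 h when the arrays differed by at least 1 on the log2 scale (2-fold) and by more than this yardstick. Levels are log2 values, and differences are deprived minus control on that scale.

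The arrays numbered 4 stood apart at 5 h. Among pairs of 5 h arrays of one group without a number 4, between 0 and 2 of the 9969 genes differed by 1 or more. Pairs with a number 4 differed by as much at 219 to 359 genes. The deprived and control arrays at 16 h differed in 919 genes. The deprived 16 h array differed from the deprived 5 h arrays in 436 to 598 genes, whereas the control 16 h array differed from the control 5 h arrays in 62 to 152. At 1, 2 and 3 h the groups differed by that much in only 19, 33 and 25 genes.

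**Figure D1:**
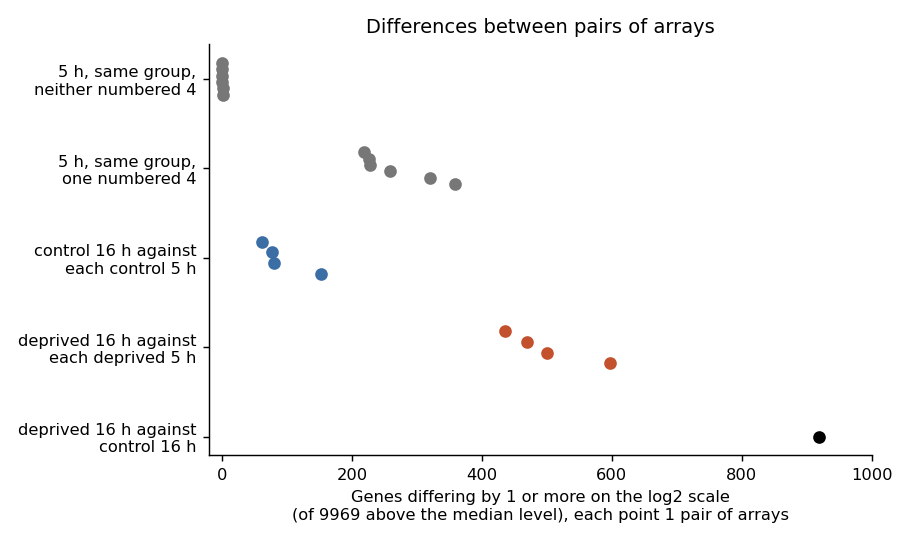
Number of genes, of 9969, that differed by 1 or more on the log2 scale (horizontal axis) between 2 arrays, each point being 1 pair. The 16 h deprived and control arrays differed in 919 genes, beyond every other pair shown, and the 5 h pairs that hold an array numbered 4 lay between 219 and 359.

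The labelled hypothalamic origin was set against marker genes of brain cell types. Only 3 of 12 neuronal markers lay above the median level (Syn1, Map2 and Stmn2), while Rbfox3, Syp and Snap25 lay below it. Astrocyte markers passed in 2 of 7 cases, but Gfap and Aqp4, which define that cell type, lay below. No marker of 7 measured for oligodendrocytes or of 7 for endothelium passed, and 2 of 8 for microglia did (Cx3cr1 and Cd68). Fibroblast and mesenchymal markers passed in 8 of 10 cases, Col1a1 included, and the neural progenitor genes Nes and Sox2 in 2 of 5. In such bulk RNA, fewer cells of a kind and less RNA per cell cannot be told apart.

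At 16 h, 344 genes (3.45% of those described) counted as higher in deprived cells and 523 (5.25%) as lower, 8.7% in all. These shares are the background for every list count below, and no list count was tested against them. Differences reached 2 or more for 26 higher and 63 lower genes, and 3 or more for 5 and 9. Over all 9969 genes the median difference was 0.01, with a standard deviation over genes of 0.61. When each array was centred on its median over the named genes, the split turned to 463 higher and 428 lower. The surplus of lower genes thus depended on this centring, which moved the median of all genes by 0.09. The 16 h medians over named genes were 7.51 in control and 7.42 in deprived cells, but 7.09 in both over all array rows. Quantile normalization repeated kept the surplus, at 348 higher and 537 lower.

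Promoters of 5 genes are printed here. Each gene was among the 12 farthest higher at 16 h or was a standard readout of ATF4. Each promoter also holds a match to the core of the element that ATF4 binds. The core of this element, TGATGNAA, was searched on both strands in the 250 bases before each start site, from RefSeq on GRCm38.p6. Of the 12 genes farthest higher at 16 h, 8 had a listed promoter and 3 of these (Slc7a11, Avil and Atf3) held the core. Of the fixed amino acid response genes, Trib3, Sesn2, Slc7a1, Atf4, Ddit3, Ddit4, Slc3a2 and Slc38a2 had listed promoters without the core. Slc7a5 had no listed promoter. Slc7a11 encodes the cystine and glutamate exchanger xCT, Avil the actin-binding protein advillin and Atf3 a stress transcription factor. Asns encodes asparagine synthetase and Chac1 a glutathione-degrading enzyme. Capitals mark the core, and sequences run 5′ to 3′ on the strand of the gene, ending at the base before the start site.
Slc7a11: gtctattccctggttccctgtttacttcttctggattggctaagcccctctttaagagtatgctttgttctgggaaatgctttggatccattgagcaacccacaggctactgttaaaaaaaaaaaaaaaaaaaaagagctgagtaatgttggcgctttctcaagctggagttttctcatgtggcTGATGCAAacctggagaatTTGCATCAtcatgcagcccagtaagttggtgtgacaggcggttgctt
Avil: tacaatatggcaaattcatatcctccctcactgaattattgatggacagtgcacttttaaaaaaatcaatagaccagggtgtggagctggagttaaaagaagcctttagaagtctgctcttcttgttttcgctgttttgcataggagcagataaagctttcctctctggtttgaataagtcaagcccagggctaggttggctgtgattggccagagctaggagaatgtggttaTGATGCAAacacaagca
Atf3: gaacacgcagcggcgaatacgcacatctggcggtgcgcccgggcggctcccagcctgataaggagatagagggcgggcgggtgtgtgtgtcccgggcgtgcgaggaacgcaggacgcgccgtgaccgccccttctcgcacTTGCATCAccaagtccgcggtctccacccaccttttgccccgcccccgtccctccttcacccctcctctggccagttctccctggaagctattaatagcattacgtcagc
Asns: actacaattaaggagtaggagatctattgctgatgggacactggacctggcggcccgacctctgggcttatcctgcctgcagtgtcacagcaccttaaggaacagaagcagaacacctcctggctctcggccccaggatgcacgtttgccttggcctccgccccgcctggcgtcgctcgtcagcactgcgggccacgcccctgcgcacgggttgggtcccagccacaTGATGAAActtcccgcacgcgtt
Chac1: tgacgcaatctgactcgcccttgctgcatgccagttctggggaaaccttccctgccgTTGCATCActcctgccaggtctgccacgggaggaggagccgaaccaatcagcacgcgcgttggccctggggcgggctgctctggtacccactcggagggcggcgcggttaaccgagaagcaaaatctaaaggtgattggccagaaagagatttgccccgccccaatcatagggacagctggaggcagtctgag

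These stretches lie at chr3:50443614-50443863 on the minus strand (Slc7a11), chr10:127000459-127000708 on the plus strand (Avil), chr1:191183334-191183583 on the minus strand (Atf3), chr6:7693210-7693459 on the minus strand (Asns) and chr2:119350992-119351241 on the plus strand (Chac1). Slc7a11 held 2 matches that did not overlap, in opposite orientations, and the others held 1. The core was present in 21 of the 269 higher genes with a listed promoter (7.81%), in 7 of 386 lower genes (1.81%) and in 187 of 8064 described genes (2.32%). Of all 32851 listed promoters, 1134 (3.45%) held it. A match is a run of letters and not a measured binding site.

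Slc7a11 stood at a level of 11.41 on the deprived 16 h array and 7.20 on the control, a difference of 4.21 (18.5-fold), against a yardstick of 1.64. At 5 h its levels were 8.93, 8.78, 8.51 and 7.29 in control arrays 1 to 4 and 11.79, 11.66, 11.67 and 11.22 in the deprived arrays. The groups did not overlap at 5 h, and the gene rose by 3.21 ± 0.32 (SE, n = 4 per group, limma, adjusted p = 0.00059). The deprived level at 16 h thus lay close to the 5 h levels, and the larger difference came with a control array below every 5 h control array.

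Car6, which encodes a secreted carbonic anhydrase, had the widest difference of all 9969 genes, 5.15 (35.6-fold), with levels of 11.70 and 6.55. Its 5 h control levels were 9.41, 9.21, 8.96 and 5.66, and its deprived levels were 10.27, 9.98, 10.15 and 8.76. Control array 4 lay far below the other control arrays, which set a yardstick of 3.75. The mean 5 h difference of 1.48 ± 0.75 (SE) did not pass in limma (adjusted p = 0.47), but did with the sample number as a block (adjusted p = 0.0045).

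Avil differed by 3.61 at 16 h, with levels of 10.98 and 7.37. At 5 h the control arrays gave 8.26, 7.99, 8.10 and 7.21 and the deprived arrays 8.99, 8.70, 8.88 and 8.58, a rise of 0.90 ± 0.21 (SE, limma, adjusted p = 0.043). Its deprived level at 16 h lay above the highest level on the other 15 arrays, 8.99. Napb, which encodes a vesicle fusion protein, differed by 2.52, with levels of 9.64 and 7.12. On the other arrays Napb lay between 7.12 and 7.69, with a mean of 7.42, so it entered the described genes only through its deprived 16 h level. The same held for 3 of the 344 genes counted as higher, Napb included, and 1 of the 523 counted as lower entered only through its control 16 h level. The 5 h difference of Napb was 0.24 ± 0.09 (SE), which did not pass in limma (adjusted p = 0.21).

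**Figure D2:**
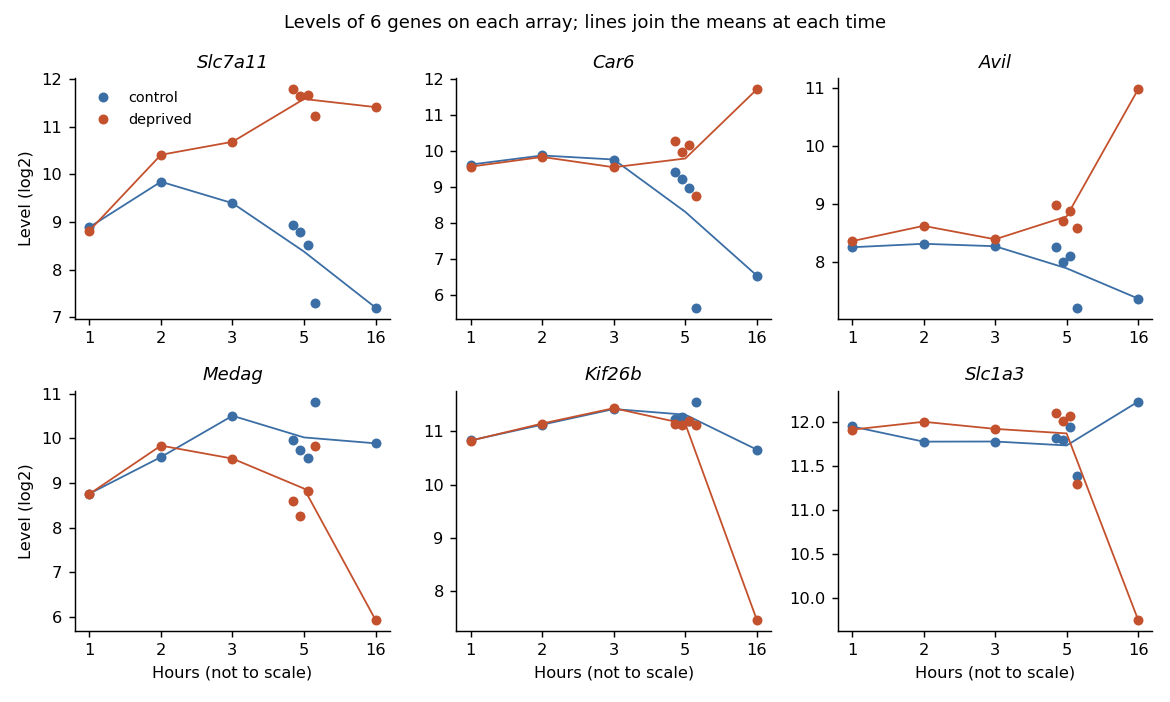
Log2 level (vertical axis) of Slc7a11, Car6, Avil, Medag, Kif26b and Slc1a3 on each array against hours of treatment, with 4 arrays per group at 5 h and 1 at the other times; lines join the means. Slc7a11 differed already at 5 h, whereas Avil at 10.98, Medag at 5.93, Kif26b at 7.46 and Slc1a3 at 9.75 lay outside all other arrays only in deprived cells at 16 h.

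Among the other genes of the 12 farthest higher, Cth, which makes cysteine from cystathionine, differed by 3.03. Atf3 differed by 2.93, Ppp1r15a, the phosphatase subunit that reverses eIF2 phosphorylation, by 2.76, and Trib3, a pseudokinase that binds ATF4, by 2.59. Aldh1l2, a mitochondrial folate enzyme, differed by 2.77 and Rab39b, a small GTPase of vesicle traffic, by 2.88. All 6 also rose at 5 h in limma, with adjusted p between 1.7e-05 (Trib3) and 0.0069 (Rab39b).

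Trib3 read 10.84 in deprived and 8.25 in control cells at 16 h. Its 5 h levels were 10.70, 10.53, 10.44 and 10.83 in deprived and 8.18, 8.07, 8.29 and 7.87 in control arrays, so its 16 h difference of 2.59 was nearly that at 5 h, 2.52 ± 0.12 (SE). Cox6a2, a cytochrome oxidase subunit of muscle, and Egr1, an immediate early transcription factor, completed the 12 with differences of 3.15 and 2.61. Neither passed at 5 h without the block (limma, adjusted p = 0.27 and 0.15), and both did with it (9.2e-06 and 7.7e-07).

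**Figure D3:**
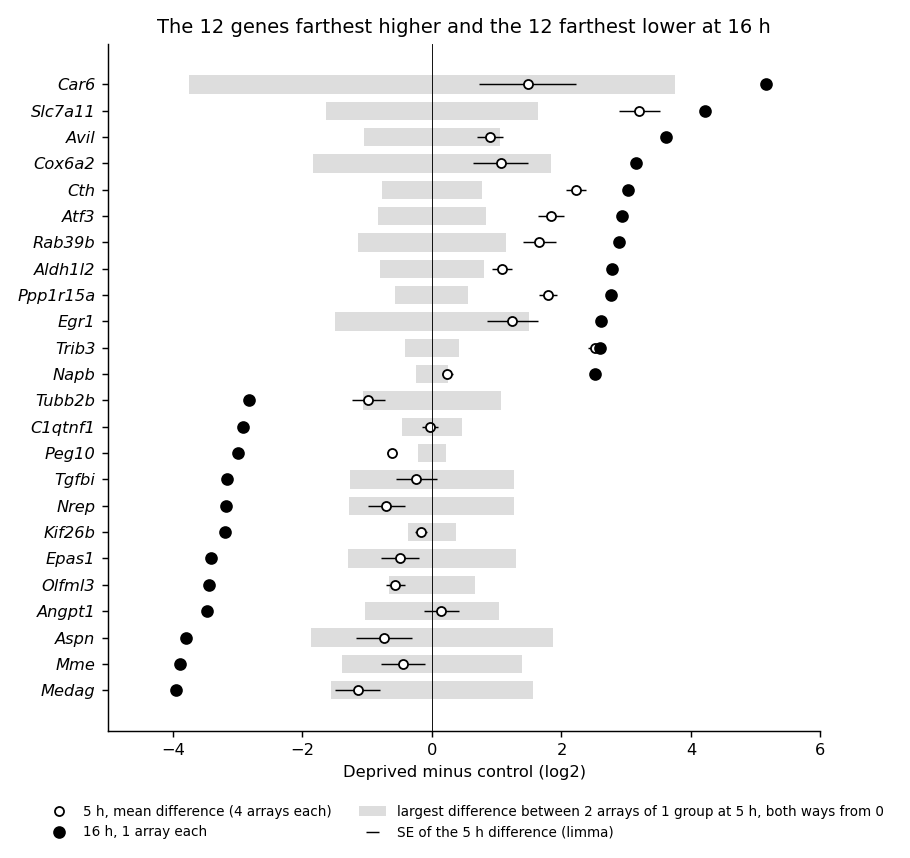
Deprived minus control difference on the log2 scale (horizontal axis) for the 12 genes farthest higher and the 12 farthest lower at 16 h. Filled points are 16 h (1 array each), open points are 5 h means with the limma standard error, and grey bars span the largest difference between 2 arrays of one group at 5 h; Trib3 lies at nearly the same place at both times, whereas Angpt1 lies at -3.48 at 16 h and at 0.15 at 5 h.

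Compared gene by gene with 5 h, the 16 h differences correlated at a Pearson r of 0.64 and a Spearman rho of 0.62 over 9969 genes, which are not independent replicates. The 16 h and 5 h differences share no array, but all arrays were normalized together. Of the 344 higher genes, 333 had a mean 5 h difference in the same direction, and 170 (49.4%) passed as higher in limma at 5 h, where 4.48% of the described genes passed that way (4.11% of all named genes passed in either direction). Of the 523 lower genes, 479 had the same direction and 89 (17.0%) passed as lower, against 3.18%. Seen from 5 h, 38.0% of the genes that rose and 28.1% of those that fell were counted the same way at 16 h. A single gene counted at 16 h passed in the opposite direction at 5 h, and 13 did with the sample number as a block.

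With that block, 279 of the higher genes (81.1%) and 308 of the lower genes (58.9%) passed at 5 h, against 14.8% and 17.9% of the described genes (18.2% of all named genes in either direction). Without both arrays numbered 4, 245 and 252 of the same genes passed, while 2 higher and 12 lower genes passed in the opposite direction. The overlap of lower genes also moved when single 5 h arrays were left out and the yardstick recomputed. It was 54 and 48 without control array 1 or 2, and 45, 43 and 51 without deprived array 1, 2 or 3.

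The higher and lower genes differed in where the 16 h arrays lay. For higher genes, the median difference was 1.21 at 16 h and 0.51 at 5 h. Their deprived level lay a median of 0.50 above the deprived 5 h mean and their control level 0.24 below the control 5 h mean (median shift -0.24). For lower genes, the median difference was -1.35 at 16 h and -0.28 at 5 h. Their deprived level had shifted by -1.01 and their control level by only 0.07. The deprived 16 h array held the highest of all 16 levels in 274 of the 344 higher genes and the lowest in 502 of the 523 lower genes. These genes were picked by a 16 h difference beyond the 5 h spread. Extreme levels at 16 h, and larger differences there than at 5 h, are therefore partly built in by the rule. Deprived 16 h levels lay 1 or more below the deprived 5 h mean, and outside the range of those arrays, in 352 genes, and above it in 37.

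**Figure D4:**
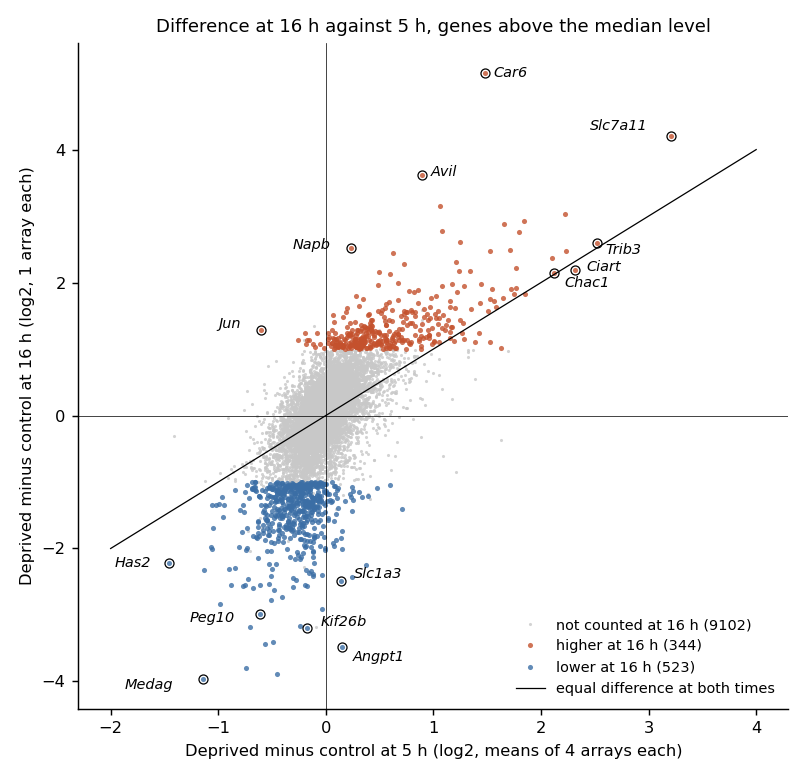
Deprived minus control difference at 16 h (vertical axis, log2, 1 array each) against the mean difference at 5 h (horizontal axis, log2, 4 arrays each), each point being 1 of 9969 genes; the line marks equal differences. Of the 523 lower genes, 418 lie within 0.5 of 0 at 5 h, as do 169 of the 344 higher genes, and Car6 and Avil lie far above the line.

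The amino acid response list held the targets and partners of ATF4. Of 41 measured members, 39 lay above the median level. Of these, 27 counted as higher at 16 h and none as lower, and the median difference was 1.53, beside 0.01 for all described genes. The list was drawn up with earlier results of these data known and includes Avil and Rab39b, so its count is no independent evidence of direction. Many of its higher members recur on lists described below, so those counts are not separate from this one. They include Asns, Gpt2, Aldh18a1, Mthfd2, Psph, Nars, Wars, Cth, Chac1, Slc7a11, Slc7a5, Slc7a1 and Slc6a9. At 5 h 38 members of the amino acid response list had risen in limma, with a median difference of 1.16. The mean level of the list was 11.20 in deprived and 9.63 in control cells at 16 h. At 5 h it lay between 11.05 and 11.17 on the deprived arrays and between 9.56 and 9.96 on the control arrays.

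Atf4 itself differed by 1.28, with levels of 10.72 and 9.44. The 5 h arrays gave 10.56, 10.59, 10.58 and 10.56 in deprived and 9.73, 9.68, 9.66 and 9.42 in control cells, a rise of 0.95 ± 0.08 (SE, limma, adjusted p = 0.0003). Ddit3, the transcription factor CHOP, differed by 2.22 and Chac1 by 2.15. Chac1 had been higher already in the first hours, with levels of 11.27, 11.53 and 11.88 in deprived and 10.53, 10.18 and 9.95 in control cells at 1, 2 and 3 h. Asns differed by 1.53 and Sesn2, a leucine-binding inhibitor of mTORC1, by 1.83.

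Ddit4, another mTORC1 inhibitor, was the one of the ATF4 readouts described here that lay lower in deprived cells. It stood at 9.03 in deprived and 9.64 in control cells at 16 h, a difference of -0.61 that lay within its yardstick of 1.44. At 5 h its control levels were 8.92, 8.73, 8.70 and 10.14 and its deprived levels 9.56, 9.45, 9.44 and 10.59. The array numbered 4 was the highest of each 5 h group, and the mean difference of 0.64 ± 0.35 (SE) did not pass in limma (adjusted p = 0.54) but did with the block (8.8e-05).

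Cytosolic tRNA synthetases, which load amino acids onto tRNA, showed 9 of 18 members higher and none lower, with a median difference of 1.06. Lars (leucine) differed by 1.87, Tars (threonine) by 1.72, Eprs (glutamate and proline) by 1.55 and Iars (isoleucine) by 1.47. Tars read 11.14 and 9.42 at 16 h, against 10.90, 10.76, 10.80 and 10.97 in deprived and 9.96, 9.74, 9.57 and 9.54 in control cells at 5 h. The mitochondrial synthetases gave 1 higher of 15 above the median level (of 16 measured), Nars2 at 1.03, and a median of 0.18. The difference between the cytosolic and mitochondrial lists was not tested.

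Enzymes of serine, glycine and one-carbon metabolism counted 5 higher and none lower of 13 above the median level (of 16 measured), with a median of 0.77. Aldh1l2 led them, followed by Mthfd2 and Shmt2, its neighbours in mitochondrial folate metabolism, and Psph, the last enzyme of serine synthesis, at 1.31. Mthfd2 differed by 1.60, and Shmt2 read 12.45 in deprived and 10.95 in control cells. Among enzymes of asparagine, alanine, glutamate and proline, 4 of 12 (of 15 measured) were higher. Gpt2, the mitochondrial alanine transaminase, differed by 2.38, Got1, the cytosolic aspartate transaminase, by 1.61, and Aldh18a1, which starts proline synthesis, by 1.53, like Asns. The other members of that list held its median at -0.03.

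Of 12 genes for cystine use and glutathione (15 measured), Slc7a11, Cth and Chac1 were higher and Glrx, a glutaredoxin, was lower at -1.52. The median of the 12 was -0.22, and the higher genes among them are all on the amino acid response list too. For the breakdown of branched-chain amino acids, 1 of 17 (19 measured) was higher, the cytosolic transaminase Bcat1 at 1.47, and the median was 0.00. Of 6 stress-induced secreted factors (11 measured) 4 were higher and none lower, with a median of 1.48, or 0.59 over all measured members. They were the secreted glycoprotein Stc2 at 1.98, Nupr1 at 1.57, a nuclear stress regulator that is not itself secreted and is also on the amino acid response list, and the angiopoietin-like proteins Angptl6 at 1.52 and Angptl4 at 1.43.

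Solute carriers, the transporters named in the title of the study, split in both directions. Of 379 measured, 161 lay above the median level, and 11 were higher and 9 lower, with a median difference of 0.03. Of all described genes 3.45% were higher and 5.25% lower, so the count of lower carriers lay near the general share. Of the amino acid transporters, 8 of 21 (37 measured) were higher and 3 lower. The median was 0.45, and 0.00 with the low genes included.

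Behind Slc7a11, the carriers farthest higher were Slc1a5 and Slc38a7, which carry glutamine, at 1.95 and 1.38, Slc6a9, the glycine carrier, at 1.91, Slc7a1, a carrier of cationic amino acids, at 1.82 and Slc7a5, the light chain of a carrier of large neutral amino acids, at 1.28. These 5 had risen at 5 h, by 1.08, 1.05, 1.77, 1.75 and 1.11 (limma, adjusted p between 0.0013 and 0.0074). Slc3a2, the heavy chain shared by Slc7a5 and Slc7a11, stood at 13.40 and 12.73, and Slc38a2, a starvation-responsive carrier of neutral amino acids, at 13.42 and 12.64. Their differences of 0.67 and 0.78 exceeded their yardsticks of 0.28 and 0.13 without reaching 1. At 5 h they rose by 0.76 and 0.65 (limma, adjusted p = 0.00084 and 0.00093).

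The lower carriers differed in their 5 h values. Slc1a3, a glutamate transporter of astrocytes, read 9.75 in deprived and 12.24 in control cells at 16 h, a difference of -2.49. Its levels on the other 15 arrays lay between 11.30 and 12.24, and its 5 h difference was 0.14 ± 0.19 (SE, limma, adjusted p = 0.98). Slc7a2, a second carrier of cationic amino acids, differed by -1.81 and Slc6a6, the taurine carrier, by -1.80, against -0.08 and -0.11 at 5 h. Slc12a2, a sodium, potassium and chloride cotransporter, differed by -1.17. Slc16a9, of the monocarboxylate carrier family, differed by -2.30, but by -1.08 when the mean of its array rows was used. It had fallen at 5 h by 0.90 on the log2 scale (limma, adjusted p = 0.00093). Slc9a3r1, whose product is a scaffold protein and no carrier, differed by -1.23 and had fallen at 5 h by 0.61 (limma, adjusted p = 0.0049).

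Ribosome biogenesis genes, whose products process ribosomal RNA, counted 10 higher and none lower of 49, with a median of 0.71 at 16 h and 0.19 at 5 h. Gnl3 and Rrs1 differed by 1.55 each, Wdr12 by 1.51 and Noc3l by 1.24, and 46 of the 49 differences were above 0. At 5 h 4 members had risen in limma, and 23 with the block. Their mean level at 16 h, 10.25 in deprived and 9.58 in control cells, compares with 9.86 to 10.04 and 9.52 to 9.92 at 5 h. By contrast none of 47 cytosolic ribosomal protein genes was counted, and their differences lay between -0.43 and 0.35. Of 29 translation factors only Eif2s2, a subunit of eIF2, was counted, at 1.10. It was at 0.97, under the limit of 1, with the mean of its array rows.

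Among immediate early genes, which respond first to many stimuli, 7 of 18 were higher and 1 lower (23 measured). Besides Atf3 and Egr1 these included Myc, at 2.18, and Maff, a small MAF factor, at 1.59. Myc read 12.10 and 9.93 at 16 h, and 11.69, 11.63, 11.45 and 11.47 in deprived against 10.52, 10.48, 10.23 and 9.65 in control cells at 5 h. Jun stood out because its direction at 16 h, 11.90 against 10.62, was opposite to that at 5 h. There it read 10.89, 10.86, 10.95 and 10.15 in deprived and 11.61, 11.51, 11.38 and 10.74 in control cells. The mean 5 h difference of -0.60 ± 0.22 (SE) did not pass in limma (adjusted p = 0.23), but passed as lower with the block (adjusted p = 0.00011).

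Gnpnat1, an enzyme of the hexosamine pathway, was another gene far above its 5 h value, with a difference of 2.45 at 16 h and 0.62 ± 0.18 (SE) at 5 h (limma, adjusted p = 0.11; 0.00014 with the block). Its deprived level at 16 h was 12.12, against 10.94, 10.87, 10.85 and 10.36 at 5 h. The control levels were 9.67 at 16 h and 10.47, 10.32, 10.02 and 9.70 at 5 h.

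On the lower side, Medag, an adipocyte differentiation gene, read 5.93 in deprived and 9.89 in control cells, a difference of -3.96. At 5 h its levels were 8.60, 8.26, 8.82 and 9.82 against 9.96, 9.74, 9.56 and 10.82, and the difference of -1.15 ± 0.35 (SE) did not pass in limma without the block (adjusted p = 0.13; 3.2e-05 with it). Mme, the membrane endopeptidase neprilysin, differed by -3.89, Aspn, a small leucine-rich matrix proteoglycan, by -3.80, and Olfml3, a secreted olfactomedin-like protein, by -3.44. In each of these the deprived 16 h array was the lowest of all 16.

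Angpt1, the secreted ligand of the TIE2 receptor, read 7.32 in deprived and 10.80 in control cells at 16 h, a difference of -3.48. The groups overlapped at 5 h, with 10.50, 10.45, 10.74 and 11.45 in deprived and 10.33, 10.44, 10.43 and 11.37 in control arrays. Kif26b, a kinesin family member, also had 5 h groups that met, at 11.19. It read 7.46 and 10.66 at 16 h, against 11.14, 11.12, 11.19 and 11.11 in deprived and 11.23, 11.28, 11.19 and 11.56 in control cells at 5 h. Its difference of -3.20 was -2.53 when the mean of its array rows was used.

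Epas1, the hypoxia-inducible factor HIF2 alpha, differed by -3.41 with levels of 8.03 and 11.44, and Tgfbi, a secreted adhesion protein, by -3.17. Nrep, a neuronal regeneration related gene, differed by -3.18, C1qtnf1, a secreted C1q-related protein, by -2.91, and Tubb2b, a beta tubulin, by -2.83. Of these 12 genes, the imprinted gene Peg10 alone fell at 5 h in limma without the block, by 0.61 on the log2 scale (adjusted p = 0.002). With the block, Medag and 7 others fell too: Mme (0.0012), Aspn (0.0076), Olfml3 (0.00059), Epas1 (0.0011), Nrep (0.00019), Tgfbi (0.030) and Tubb2b (3.1e-05). Angpt1, Kif26b and C1qtnf1 did not pass in either fit. Peg10 read 10.37 and 13.36 at 16 h, and 12.52, 12.64, 12.65 and 12.73 in deprived against 13.22, 13.19, 13.25 and 13.34 in control cells at 5 h.

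Collagen and extracellular matrix genes counted 18 lower and none higher of 43 above the median level (55 measured). All 43 differences were below 0, with a median of -0.94 at 16 h and -0.20 at 5 h. The adhesive glycoprotein Thbs1 differed by -2.73, the proteoglycan Dcn by -2.33, the hyaluronan synthase Has2 by -2.21 and the collagen chain Col1a1 by -2.13. Thbs1 read 10.25 and 12.97 at 16 h, and 12.83, 12.86, 13.04 and 12.54 in deprived against 13.24, 13.28, 13.24 and 13.15 in control cells at 5 h. In limma 3 of the 43 fell at 5 h, and 15 with the block. The mean level of the list was 9.22 in deprived cells at 16 h, below the range of 10.15 to 10.60 over the 5 h arrays, and 10.30 in control cells.

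Contractile and cytoskeletal genes gave 17 lower and none higher of 30 (35 measured), a median of -1.09 at 16 h and -0.33 at 5 h. Cnn2, an actin-binding calponin, differed by -2.55, the smooth muscle actin Acta2 by -1.78 and the tubulin Tubb2a by -1.68. Cnn2 had fallen at 5 h already, from 12.41, 12.32, 12.24 and 12.22 in control to 11.34, 11.55, 11.44 and 11.33 in deprived cells (limma, adjusted p = 0.00043). It stood at 12.42 and 9.87 at 16 h. At 5 h 8 members fell in limma, and 20 with the block.

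Among enzymes that make glycosaminoglycans, 4 of 24 (33 measured) were lower and none higher, with a median of -0.43. Of these the sulfotransferase Chst12 differed by -2.32, and Chst11, a related enzyme, by -1.74. The epimerase Dse read 8.42 in deprived and 9.92 in control cells. Chemokines and cytokines counted 6 lower and none higher of 9 above the median level (20 measured), with a median of -1.04, or -0.13 over all measured members. The neutrophil attractant Cxcl5 differed by -2.60, Cxcl12, the ligand of CXCR4, by -2.56, and Il33, an alarmin, by -2.14. Ccl2, the monocyte attractant, read 7.70 and 9.20. Cxcl12 had fallen at 5 h by 0.77 on the log2 scale (limma, adjusted p = 0.0016).

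Some marker genes of mesenchyme, astrocytes and neural progenitors were lower too. The lists share members, so these counts are not separate from those above. Dcn is also a matrix gene, Slc1a3 is also a carrier, and Sox9 is on both the astrocyte and the progenitor list. Of 13 mesenchymal markers (16 measured) 6 were lower and none higher, S100a4 at -2.15 among them, with a median of -0.70. Of 4 astrocyte markers above the median level (10 measured) 3 were lower, Slc1a3, the gap junction gene Gja1 at -1.45 and Sox9 at -1.41. Of 13 Notch and progenitor genes (22 measured) 3 were lower, Lfng, a glycosyltransferase that modifies Notch, at -1.98, Sox9, and Sox2, a progenitor transcription factor, at -1.27. The neuronal microtubule gene Stmn2 was lower at -1.44, and 1 of 4 neuronal markers (20 measured) counted. Whether a shift in cell types had a part in these differences was not tested.

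Genes of cholesterol synthesis were lower as a list, but for a different balance of arrays. All 20 differences were below 0, 8 counted as lower, and the median was -1.01 at 16 h and -0.27 at 5 h. The control array had shifted up from the control 5 h mean by a median of 0.47, and the deprived array by -0.15 from the deprived mean. The mean level of the list was 10.21 in control and 9.18 in deprived cells at 16 h. At 5 h it was 9.57, 9.45, 9.37 and 10.08 in control arrays and 9.38, 9.43, 9.29 and 9.44 in deprived arrays. The control arrays with high levels were thus those of 16 h and the one numbered 4 at 5 h, beside 10.40 at 1 h, when the deprived array was at 10.28.

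The yardsticks of Idi1, Hmgcs1 and Insig1, 1.81, 1.92 and 2.07, were set by control array 4, and their 16 h differences did not exceed them. Idi1, an isoprenoid enzyme, differed by -1.74, the mevalonate pathway enzyme Hmgcs1 by -1.69 and the sterol sensor partner Insig1 by -1.41. Hsd17b7, a late enzyme of the pathway, was counted at -1.47. Of 16 genes of the list with a listed promoter, 1 held a sterol regulatory element TCACNCCAC, as did 92 of 8064 described genes (1.14%).

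Fatty acid synthesis showed 3 lower and none higher of 16 (17 measured), with a median of -0.56. They were the desaturases Scd2 and Fads2, at -1.69 and -1.08, and the elongase Elovl6, at -1.34. Glycolysis gave 3 lower of 14 (15 measured) and a median of -0.64 at 16 h, against -0.07 at 5 h. The phosphofructokinases Pfkl and Pfkm differed by -1.96 and -1.29, and the aldolase Aldoa by -1.29. Pfkl read 8.82 in deprived and 10.78 in control cells, and between 9.90 and 10.34 over the 8 arrays of 5 h. Both 16 h arrays thus lay outside that range, on opposite sides.

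Hypoxia-inducible genes counted 7 lower and 1 higher of 16 (23 measured), with medians of -0.80 at 16 h (-0.50 over all measured members) and 0.01 at 5 h. The lysyl oxidase Lox differed by -1.80, the prolyl hydroxylase Egln3 by -1.78 and the mitophagy gene Bnip3 by -1.22. Egln3 barely exceeded its yardstick of 1.76. Ero1a, an oxidase of the endoplasmic reticulum that is also a stress gene, was the one higher member, at 1.72. Of 23 NRF2 target genes (24 measured) 4 were lower, with the glutathione transferases Gsta4 and Gstm1 at -1.82 and -1.52 and the quinone reductase Nqo1 at -1.59. Slc7a11, which is also on that list, was higher.

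Endoplasmic reticulum stress genes, as listed, split evenly, with 4 higher and 4 lower of 29 and a median of -0.28. The split depends on how the list was drawn. It left out the stress regulators Ddit3, Ppp1r15a, Trib3 and Atf3, which were on the amino acid response list. These were higher by 2.22, 2.76, 2.59 and 2.93. Ero1a and the co-chaperone Dnajb9, at 1.44, lay above 0. The disulfide isomerase Pdia6 differed by -1.46 and the translocon subunit Sec61b by -1.36, though Sec61b by -0.97 with the mean of its array rows.

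The list of folliculin, Rag GTPases and sestrins, which act in or around amino acid sensing by mTORC1, also split. Of 22 members (24 measured) 2 were higher and 3 lower. The higher ones were Sesn2 and the transcription factor Mitf, named after its value of 1.05 was seen. Sesn2 read 10.31 in deprived and 8.49 in control cells, whereas Sesn3 read 8.66 and 10.70, a difference of -2.04, and Sesn1 8.34 and 10.03, a difference of -1.68. Castor2, a relative of the arginine sensor, differed by -1.34. At 5 h Sesn2 had risen (limma, adjusted p = 0.00013), and Sesn1 and Castor2 had fallen (0.038 and 0.0051). Sesn3 passed only with the block (0.00015; 0.36 without it).

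Other lists held few counted genes in number at 16 h, where 3.45% of all described genes were higher and 5.25% lower. Whether any of these counts departed from those shares was not tested. None of 29 lysosome genes (33 measured) was counted, and 2 of 31 autophagy genes were higher, Atg12 at 1.28 and Gabarapl1 at 1.00. Of 46 genes of G2 and mitosis none was counted (median 0.17), and of 44 replication genes (45 measured) 2 were higher, Mcm10 and Prim1 at 1.24 and 1.11 (median 0.29). None of 42 listed respiratory chain genes (43 measured) was counted. That list did not hold the cytochrome oxidase subunit Cox6a2, which was counted as higher at 3.15. Of 35 proteasome genes 1 was counted, the activator subunit Psme1 at -1.36. A difference under 2-fold on single arrays was not counted by this rule, so these counts do not show that the levels were equal.

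**Figure D5:**
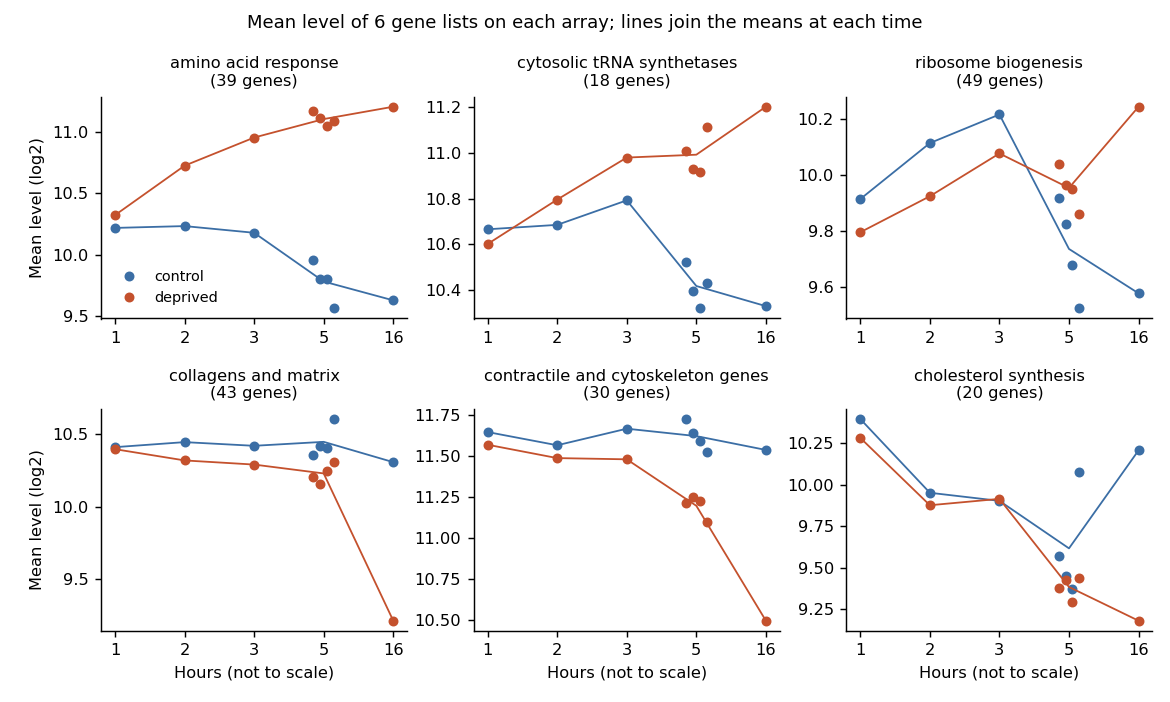
Mean log2 level (vertical axis) of 6 gene lists on each array against hours of treatment, in control and deprived cells, with 4 arrays per group at 5 h and 1 at other times; lines join the means. The amino acid response and tRNA synthetase lists separated by 5 h, the matrix and cytoskeletal lists were lowest in deprived cells at 16 h (9.22 and 10.49), and cholesterol synthesis was at 10.21 in control cells at 16 h and 10.40 at 1 h.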

How the data were processed

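RNA from each sample was labelled with a whole-transcript kit and hybridized to Affymetrix mouse arrays. The deposited values were log2 levels made by the authors with RMA, per the submitters' processing notes, which also name limma; versions and probe annotation were not given in the sources used here. Array medians lay between 7.02 and 7.12 over all rows, and between 7.42 and 7.51 over named genes. Of 35556 rows, 21789 had 1 gene symbol in the platform annotation, 1621 had several and 12146 none. Of the named rows, 21698 matched the RefSeq gene table of GRCm38.p6. Where a gene had more than 1 row (999 genes), its brightest row on average was kept.

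At 16 h the difference of the arrays was described, with no test. At 5 h, limma 3.58.1 (lmFit and eBayes, R 4.3.3) compared 4 arrays with 4, two-sided, with Benjamini-Hochberg adjustment over 19938 genes and a threshold of 0.05. The fit was also run on simulated data with independent noise on each array. Those data lacked the shared deviation of the arrays numbered 4, so that run does not show how limma performs on these arrays. Summaries used Python 3.11.15, numpy 2.4.6 and pandas 2.3.3. The number of arrays limits the precision.

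Same-numbered 5 h arrays deviated together from their group means (correlations over genes of 0.35, 0.58, 0.47 and 0.90), so limma was also run with sample number as a blocking term, whose adjusted p is given beside the 5 h calls of named genes that it changes. Among numbers 1 to 3 alone these correlations were 0.19, -0.00 and -0.20, so the pairing rests largely on the arrays numbered 4.

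Named genes were the 12 farthest higher and lower, the 6 farthest above and below their 5 h difference, up to 4 members of each list with the largest difference, the 6 solute carriers farthest each way, and fixed amino acid response genes. The genes and the 46 lists were chosen with earlier results of these data known.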

Additional observations from a re-analysis of the deposited data

Results flagged for a closer look

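Of 90 groups of 5 h arrays checked, in 45 genes, 21 held an array whose gap to the nearest other, as a share of the group's whole range, was above the limit for 4 samples, and 20 of these were arrays numbered 4. Chance alone would give about 1 in 20 such groups if they were independent. They were not, since all genes were read on the same 5 h arrays and were picked from these data. The count of flags was therefore not tested against that rate. In control cells array 4 lay below the others for Car6 (0.88), Cox6a2 (0.895), Atf3 (0.867), Epas1 (0.896), Slc6a9 (0.858), Slc7a1 (0.913), Slc7a5 (0.933) and Slc16a9 (0.881). It lay above them for Egr1 (0.937), Mme (0.921), Angpt1 (0.894), Olfml3 (0.875) and Ddit4 (0.844). In deprived cells array 4 lay below the others for Gnpnat1 (0.838), Jun (0.888), Slc1a3 (0.879) and Slc7a1 (0.844), and above them for Egr1 (0.854), Tgfbi (0.834) and Ddit4 (0.895). The exception was Napb, whose control array 1 lay above the others (0.892).

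Angpt1 and Jun were flagged for differences of opposite direction at the 2 times. They were not the only such genes, since 333 of 344 higher and 479 of 523 lower genes kept their direction. Slc1a3, for example, differed by -2.49 at 16 h and by 0.14 at 5 h. The mean 5 h difference was 0.147 for Angpt1, against -3.48 at 16 h, and -0.60 for Jun, against 1.28. This change of direction was not tested.

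Array rows with several gene symbols or none took no part in the comparisons. Of 4646 such rows above the same level, 215 met the rule for a 16 h difference, 161 of them higher and 54 lower.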

How the results depend on the processing

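The counts of higher and lower genes at 16 h, 344 and 523, became 348 and 537 with quantile normalization repeated, 463 and 428 with centring, 329 and 515 with the mean of a gene's rows, 376 and 545 with no filter on level, 357 and 562 with no yardstick and 282 and 386 with 3 times the pooled standard deviation. At 1.5-fold they were 1154 and 1114, of which 309 and 173 also passed at 5 h. Leaving out each 5 h array in turn gave 344 to 352 higher and 523 to 537 lower genes, of which 128 to 181 and 43 to 111 passed. With the replicate block 279 and 308 passed. Without both arrays numbered 4 and with the yardstick recomputed, 267 lower genes passed, against 89. The cause was not tested. Over 130 named genes no difference changed sign under these scalings and rows. Of their values, 13 were marked as moved and 377 as the same. That mark could be set by a shift smaller than the yardstick. Nupr1, for example, was marked at 1.65 with centring, against 1.57 and a yardstick of 0.19. Over 43 list medians, 8 values with a median near 0 differed in sign. With 1 array per group at 16 h, the only error available for a 16 h difference is the spread of the 5 h arrays.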

Other observations

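Clock genes, which are not part of the amino acid response, split at 16 h, with 4 higher and 2 lower of 17 (18 measured). Ciart, a circadian repressor, differed by 2.18 and had risen by 2.32 at 5 h (limma, adjusted p = 0.00015). Nr1d1 and Nr1d2, the REV-ERB repressors, differed by 1.39 and 1.18, and only Nr1d2 had passed at 5 h without the block (limma, adjusted p = 0.00019; 0.77 for Nr1d1, or 0.030 with the block). The transcription factor Hlf was lower at -1.90, against -0.12 at 5 h.

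Genes of feedback on the kinase ERK split as well, with 2 higher and 2 lower of 15 (21 measured). The transcription factor Etv5 differed by 1.56 and its relative Etv1 by -1.36, while the inhibitor Spry1 differed by -1.44. Regulators of the cell cycle and quiescence counted 3 higher and 3 lower of 32 (34 measured), with Txnip, an arrestin that binds thioredoxin, at 1.77 and the inhibitor Cdkn2b at -1.32. Txnip lay close to its yardstick of 1.68. Of 28 genes of p53 and cell death (31 measured) 1 was higher, Gadd45a at 1.90, and 1 lower, Sesn1. Of 12 interferon-response genes (27 measured) Ifit3 alone was counted, at -1.87. None of 5 hypothalamic peptide and receptor genes above the median level (24 measured) was counted. Beside these list counts, 3.45% of all described genes were higher and 5.25% lower.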
